A study of Mus musculus with 6 samples.

Results

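The genes described here are 6 that encode the light sensors of photoreceptors and the proteins that switch them off. They are the cone opsins Opn1sw and Opn1mw, the arrestins Arr3 and Sag, the opsin kinase Grk1 and the calcium sensor Rcvrn, found by symbol among the 24346 genes of each deposited table. All 6 passed the filter on low values used for testing. RNA came from whole mouse retinas at postnatal day 12, with 3 libraries in each of 2 groups. The control retinas were Panky+/-;Panky-like+/-;Nrl-/- and the triple-deficient retinas Panky-/-;Panky-like-/-;Nrl-/-, so every library lacks Nrl, the factor needed for rods to form, and the controls already carry 1 mutant copy of each Panky gene. A retina without Nrl is used to enrich for cone-like cells and is not a wild-type retina. The design text speaks of 3 littermate pairs, but no label ties a replicate number to a litter or says whether animals were pooled. The p-values therefore measure only the spread between these samples, which may be technical in part.

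In a photoreceptor, light changes the shape of an opsin, and the opsin then activates the G protein transducin. The response ends when the opsin kinase Grk1 phosphorylates the tail of the opsin and an arrestin binds it. Recoverin, the product of Rcvrn, holds the kinase back while calcium is high. In mouse cones, short-wavelength opsin (Opn1sw) and middle-wavelength opsin (Opn1mw) can occur in the same cell, Arr3 is the cone arrestin, and Sag, the rod arrestin, is also made by cones. Panky, taken here to be Ankrd33, is known as a transcriptional co-repressor that acts on genes driven by Crx, the homeodomain factor of photoreceptors. Panky-like is read here as the related gene Ankrd33b; no label names either gene that way.

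Because Crx recognizes sites of the TAATCC type and Nrl the half-site TGCTGA, the stretch of 250 bases before the transcription start was searched on both strands for TAATCC, for the variant TAATCT and for TGCTGA. RefSeq's promoter table for GRCm38.p6 matched 5 of the 6 genes, all but Rcvrn. The 3 stretches shown are those that hold at least 1 match, printed 5′ to 3′ on the strand of the gene, with matches on either strand in capitals. They lie at chr6:29380514-29380763 on the minus strand (Opn1sw), chrX:100605247-100605479 on the plus strand (Arr3) and chr1:87803430-87803679 on the plus strand (Sag), and no annotated exon of GENCODE M21 falls in them. The stretch of Opn1sw lies inside the span that GENCODE M21 gives for that gene, outside its exons. The start used for Sag lies 5537 bases inside the gene span that RefSeq gives, since other RefSeq transcripts begin further upstream.
Opn1sw: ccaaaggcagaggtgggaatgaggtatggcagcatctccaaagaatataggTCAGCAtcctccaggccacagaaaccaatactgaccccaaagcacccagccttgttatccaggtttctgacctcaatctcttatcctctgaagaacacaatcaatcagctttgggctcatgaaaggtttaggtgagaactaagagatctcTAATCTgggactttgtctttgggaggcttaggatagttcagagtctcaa
Arr3: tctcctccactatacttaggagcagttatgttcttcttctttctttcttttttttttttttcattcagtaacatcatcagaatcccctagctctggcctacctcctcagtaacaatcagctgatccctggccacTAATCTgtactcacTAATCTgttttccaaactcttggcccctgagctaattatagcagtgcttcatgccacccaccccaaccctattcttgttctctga
Sag: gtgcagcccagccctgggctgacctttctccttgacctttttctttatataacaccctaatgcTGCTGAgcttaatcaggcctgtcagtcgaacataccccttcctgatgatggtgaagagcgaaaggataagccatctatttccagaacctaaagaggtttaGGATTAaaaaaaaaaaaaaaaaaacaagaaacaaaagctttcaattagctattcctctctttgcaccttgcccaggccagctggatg
Opn1sw held 1 TAATCT, which begins 49 bases before the start, and 1 TGCTGA on the opposite strand. Arr3 held 3 TAATCT, which begin 116, 102 and 10 bases before the start. The last of these lies in the 17 bases left out of the printed stretch because another RefSeq transcript of Arr3 already begins there. Sag held 1 TAATCC on the opposite strand, beginning 87 bases before the start, and 1 TGCTGA. Opn1mw and Grk1 held none of the 3 motifs in this window. Of all 32851 promoters in the table, 6.25% held TAATCC, 7.31% held TAATCT and 16.1% held TGCTGA. The motifs do not overlap each other in these windows, and a match is a description of the letters, not a site of binding.

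Values are FPKM (fragments for each kilobase of a transcript, relative to the size of the library) as deposited, and since they are per length, levels of different genes can be set side by side. Estimated from the steps of low values, the libraries held 18.2 to 27.3 M fragments, so that even the least abundant of the 6 genes had at least 893 fragments per kilobase of transcript in each library. The genotypes were visible in the targeted genes. Ankrd33b fell, ranging from 32.6 to 35.4 FPKM over the controls and from 1.31 to 1.80 FPKM over the triple-deficient libraries. Ankrd33 fell as well, from a range of 104 to 110 FPKM to one of 50.5 to 59.6 FPKM (limma adjusted p = 4.56e-07 and 0.00274). Such values cover whole genes and do not tell intact transcript from transcript of a mutant allele. Markers of both photoreceptor classes were measured. Gnat2, the cone transducin subunit, stood at 532 to 583 FPKM over the 6 libraries, while Gnat1, the rod transducin subunit, stood at 0.269 to 0.514 FPKM and Cnga1, a rod channel subunit, at 0 to 0.0171 FPKM. Other genes of the rod list were present, Pde6g, a phosphodiesterase subunit, at 702 to 791 FPKM, Gngt1, the rod transducin gamma subunit, at 258 to 367 FPKM and Gnb1, its beta subunit, at 124 to 132 FPKM. The 9 listed rod cascade genes summed to 1177 to 1300 FPKM per library and the 8 cone cascade genes to 4221 to 4737 FPKM. Triple-deficient 3 stood apart in base composition, with a Spearman correlation of -0.586 between GC content and its deviations from the gene means, where the other libraries gave 0.0652 to 0.297. That correlation runs across genes, and genes are no replicates.

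Opn1sw was the most abundant of the 6 genes, followed by Sag, Rcvrn, Arr3, Grk1 and Opn1mw. This order was the same in 6 of 6 libraries, and no 2 neighbours in it overlapped in their ranges over the libraries. Opn1sw ranged from 1406 to 1568 FPKM and Sag from 1239 to 1345 FPKM, the closest neighbours, with means 1.17-fold apart. Rcvrn ranged from 440 to 546 FPKM, Arr3 from 213 to 326 FPKM, Grk1 from 136 to 148 FPKM and Opn1mw from 47.8 to 61.6 FPKM. Among all genes of a library, Opn1sw held place 2 or 3 by FPKM and Sag places 3 to 5, whereas Opn1mw held places 1243 to 1738. Together the 6 genes made up 0.937% to 1.01% of the summed FPKM of a library.

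**Figure D1:**
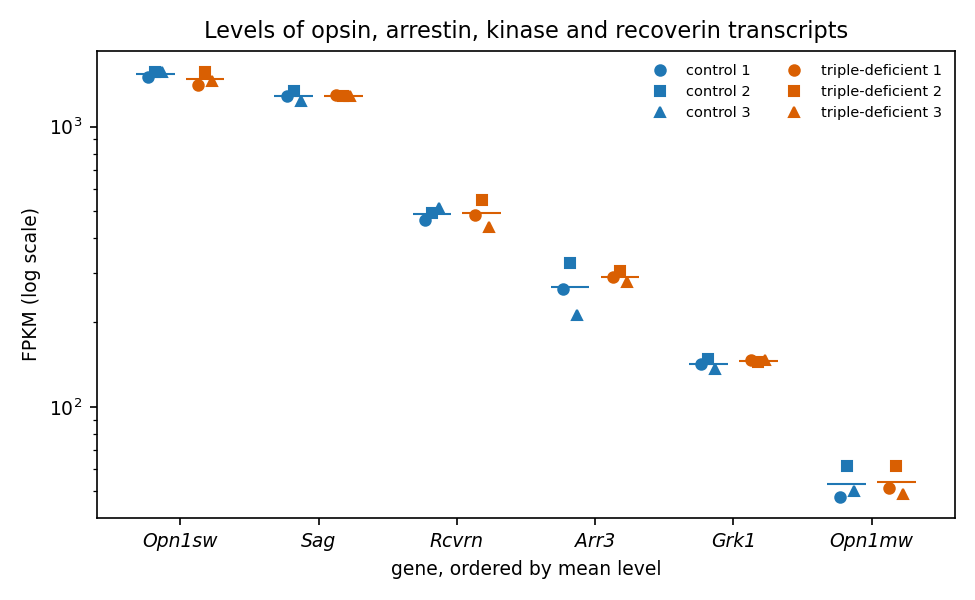
FPKM (log scale) of the 6 genes in each control (blue) and triple-deficient (orange) library, with a bar at each group mean and genes ordered by mean level. The ranges of neighbouring genes do not overlap, and for every gene the libraries of both groups do.

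For the genotype comparison, log2(FPKM + 1) values were fitted with limma over 14325 genes, and all changes are triple-deficient minus control on that scale. None of the 6 genes differed past the threshold: 0 passed an adjusted p of 0.05 in limma, and 0 had an unadjusted p below 0.05. Over all genes tested, 4 passed (0.0279%), among them the targeted genes Ankrd33b and Ankrd33, and 729 had an unadjusted p below 0.05 (5.09%). The groups overlapped for each of the 6 genes, while they did not overlap for 10.5% of all genes tested. Of the 6 changes, 3 were above 0 and 3 below, with a median of 0.0094 beside 0.0034 over all genes tested. Fewer photoreceptors and less RNA per photoreceptor cannot be told apart in whole retinas.

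Opn1sw, whose product in the mouse absorbs in the ultraviolet, lies on chromosome 6 (29376671 to 29380513, GRCm38.p6). It was at 1503, 1563 and 1568 FPKM in control libraries 1, 2 and 3 and at 1406, 1565 and 1452 FPKM in triple-deficient libraries 1, 2 and 3. Triple-deficient 1 and 3 lay below all controls, and triple-deficient 2 lay among them. The group means were 1545 ± 35.9 and 1475 ± 81.5 FPKM (SD, n = 3), which is -0.07 on the log2 scale (SE 0.064, limma adjusted p = 0.958). The 95% confidence interval ran from -13.8% to 5.60% of the control FPKM + 1. GENCODE M21 places 397 exonic bases of Calu, a gene on the opposite strand, over exons of Opn1sw. The libraries are stranded, but whether the counting used strand is not given in the sources used here; Calu was at 141 to 172 FPKM, with a log2 change of -0.0085.

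Opn1mw, the middle-wavelength opsin, lies on the X chromosome (74127466 to 74150756) and was far below Opn1sw in every library. Its FPKM were 47.8, 61.6 and 50.1 in the controls and 51.3, 61.4 and 49.0 in the triple-deficient libraries. Library 2 of each group stood above the other libraries, and the remaining ones lay within 47.8 to 51.3 FPKM. Group means were 53.2 ± 7.40 and 53.9 ± 6.60 FPKM (SD, n = 3), or 0.02 on the log2 scale (SE 0.110, limma adjusted p = 0.992; 95% interval -0.23 to 0.27). The sign depended on single libraries, the change being -0.05 without control 1, -0.02 without control 3 and -0.07 without triple-deficient 2. Opn1sw exceeded Opn1mw by 31.4-, 25.4- and 31.3-fold in the controls and by 27.4-, 25.5- and 29.6-fold in the triple-deficient libraries. The cone opsin mixture was thus almost wholly Opn1sw, at 96.2% to 96.9% of the summed FPKM of the pair.

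Arr3, the cone arrestin, had the largest change of the 6 genes and also the largest spread. It lies on the X chromosome (100605480 to 100618493). Its FPKM were 263, 326 and 213 in the controls and 290, 305 and 280 in the triple-deficient libraries. All 3 triple-deficient libraries fell between the highest and the lowest control. Means were 267 ± 56.8 and 292 ± 12.7 FPKM (SD, n = 3). The log2 change was 0.15 (SE 0.133, adjusted p = 0.958 in limma), and the 95% interval reached from -0.16 to 0.45. Control 3, the lowest library, set the direction. Without it the log2 change was -0.0079 (limma adjusted p = 0.996). Leaving out control 2, the highest, gave 0.30, with an unadjusted p of 0.0173 and an adjusted p of 0.969 in limma.

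Sag, the rod arrestin, is on chromosome 1 (87798143 to 87845158) and shared the smallest spread of the 6 genes with Grk1. Control libraries held 1291, 1345 and 1239 FPKM and triple-deficient libraries 1295, 1288 and 1284 FPKM, the latter all within the range of the controls. The means of 1292 ± 52.9 and 1289 ± 5.70 FPKM (SD, n = 3) differed by -0.0023 on the log2 scale (SE 0.058, limma adjusted p = 0.999). The interval allowed changes of FPKM + 1 from -8.90% to 9.42%. In these retinas, which had next to no Gnat1, Sag made up 80.5% to 85.4% of the summed FPKM of both arrestins. Arr3 stood at 0.204, 0.242 and 0.172 of the Sag level in the controls and at 0.224, 0.237 and 0.218 in the triple-deficient libraries.

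Grk1, the opsin kinase of mouse rods and cones, lies on chromosome 8 (13405081 to 13421951). It was at 142, 148 and 136 FPKM in the controls and at 147, 145 and 146 FPKM in the triple-deficient libraries. The triple-deficient libraries again sat inside the range of the controls, above controls 1 and 3 and below control 2. It differed by 0.04 on the log2 scale (SE 0.046, limma adjusted p = 0.959), with means of 142 ± 5.82 and 146 ± 1.08 FPKM (SD, n = 3). Its 95% interval, -0.07 to 0.15, was the narrowest of the 6.

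Rcvrn, the calcium sensor that restrains Grk1, lies on chromosome 11 (67695326 to 67703355). Its FPKM were 464, 491 and 513 in the controls and 484, 546 and 440 in the triple-deficient libraries. The highest and the lowest library were both triple-deficient. Means were 489 ± 24.2 and 490 ± 53.2 FPKM (SD, n = 3), apart by -0.0024 on the log2 scale (SE 0.082, limma adjusted p = 0.999; 95% interval -0.19 to 0.19). Of the 6 genes it had the highest GC content in its longest GENCODE transcript, 53.9% against 48.3% to 50.9%. Its lowest value was in triple-deficient 3, the library with the divergent base composition. The highest, 546 FPKM, was in triple-deficient 2, with a GC correlation of 0.0652, and triple-deficient 1, with 0.297, was at 484 FPKM. Whether base composition shaped these values was not tested. With the GC trend removed the change was 0.01, and without triple-deficient 3 it was 0.07.

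**Figure D2:**
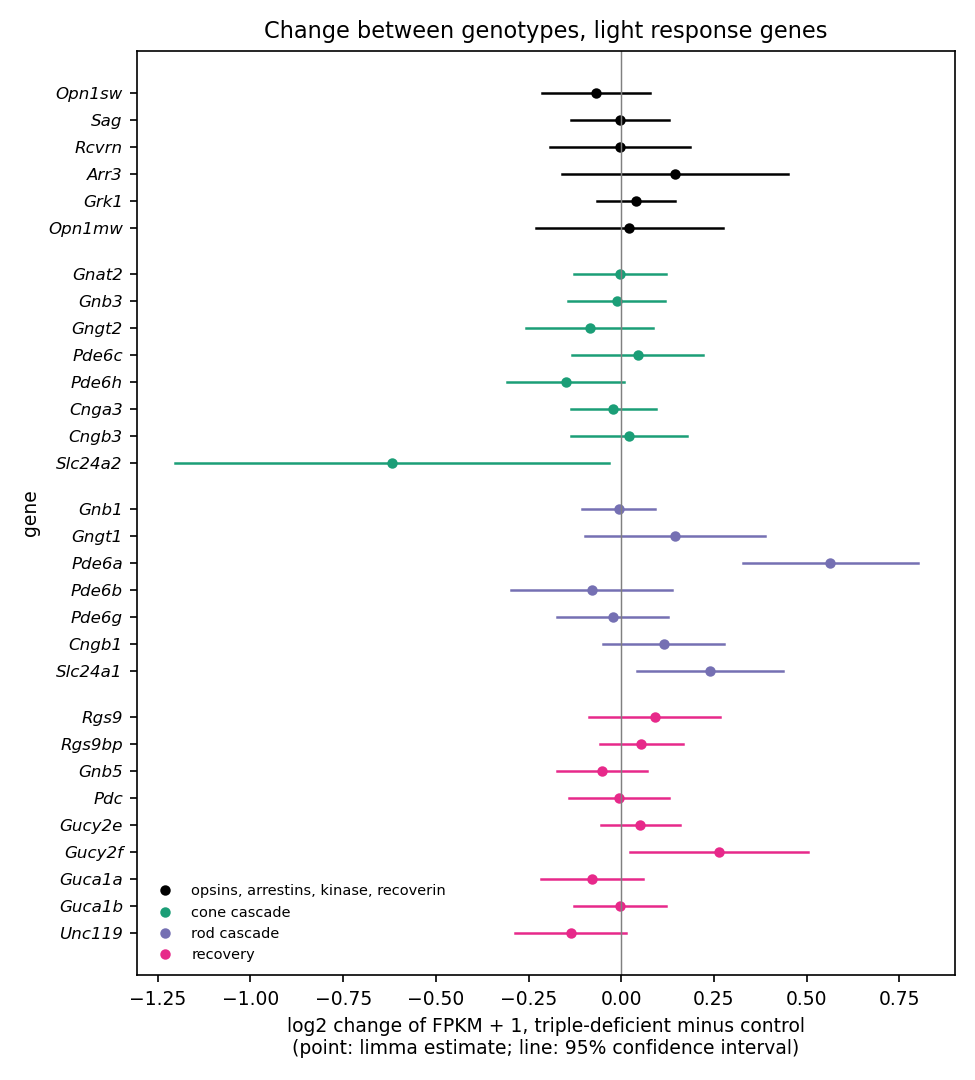
Change between genotypes in log2(FPKM + 1), with limma's estimate as a point and its 95% confidence interval as a line, for the 6 genes (black) and the tested genes of the cone cascade, the rod cascade and recovery. All 6 black intervals include 0, that of Grk1 being the narrowest and that of Arr3 reaching from -0.16 to 0.45.

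Ratios within a library do not depend on the scaling between libraries, and 5 of them were compared. A test of 3 against 3 libraries cannot go below p = 0.1 in the two-sided exact permutation test. The groups overlapped for all 5 ratios, and the adjusted p over the 5 ran from 0.75 to 0.8. The largest difference was that of Arr3 to Opn1sw, at log2 -2.55 ± 0.312 in controls and -2.34 ± 0.052 in triple-deficient retinas (SD, n = 3, exact permutation p = 0.4). That difference of 0.21 was 0.049 without control 3 and 0.36 without control 2, and that of Arr3 to Sag was 0.024 without control 3. Grk1 stood at 0.0869 to 0.104 of the Opn1sw level over the 6 libraries, and the groups differed by 0.11 on the log2 scale (exact permutation p = 0.3). Opn1sw to Opn1mw differed by -0.09 (exact permutation p = 0.6), Arr3 to Sag by 0.15 (0.5) and Rcvrn to Grk1 by -0.04 (0.8), each triple-deficient minus control.

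The 6 genes differed in how much they varied between replicate libraries. The SD within groups of log2(FPKM + 1) was 0.222 for Arr3, 0.181 for Opn1mw and 0.121 for Rcvrn, and 0.061 for Opn1sw, 0.042 for Grk1 and 0.042 for Sag. The median over the 1657 genes averaging 50 FPKM or more was 0.0678. Of those genes, 98.4% had a smaller SD than Arr3, 96.6% a smaller one than Opn1mw and 88.5% a smaller one than Rcvrn, against 42.2% for Opn1sw, 16.8% for Grk1 and 16.5% for Sag. The counting error of 1 kilobase of transcript in the shallowest case was 3.35% of the value for Opn1mw and 1.43% for Arr3, while control 2 deviated by 16.6% and control 3 by -23.9% from the mean of Arr3 over the 6 libraries. PCR copies are not independent molecules, so that error covers counting only.

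**Figure D3:**
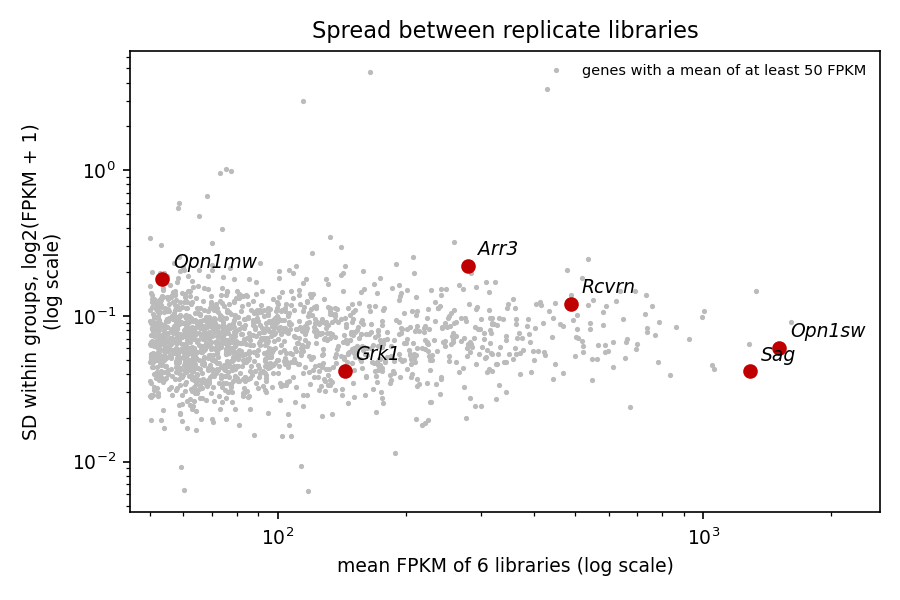
SD within groups of log2(FPKM + 1) against mean FPKM (both axes log scale) for 1657 genes averaging 50 FPKM or more (grey), with the 6 genes in red. Arr3 and Opn1mw lie near the upper edge of the cloud, at 0.222 and 0.181, and Sag and Grk1 in its lower part, both at 0.042.

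Both genes with the largest spread are on the X chromosome, and both were highest, within each group, in library 2. Opn1mw stood 15.1% above its mean in control 2 and 14.7% above it in triple-deficient 2, and Arr3 16.6% and 9.14% above. Xist, the RNA of the inactive X chromosome, was at 322 to 340 FPKM in control 1, control 2 and triple-deficient 2 and at most at 0.115 FPKM in the other libraries, so each group holds libraries of both sexes. Control 1 has Xist but holds the lowest Opn1mw. Arr3 was at 263 and 326 FPKM in the controls with Xist and at 213 FPKM in control 3, without it. Among triple-deficient libraries, Arr3 was at 305 FPKM with Xist and at 290 and 280 FPKM without. Control 1, with Xist, was nonetheless below triple-deficient 1 and 3. Whether library sex shaped these values was not tested. With library sex as a covariate, a fit added after seeing the data, the log2 change was 0.24 for Arr3 (SE 0.109, unadjusted p = 0.061) and 0.09 for Opn1mw (SE 0.099), both at limma adjusted p = 0.998.

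**Figure D4:**
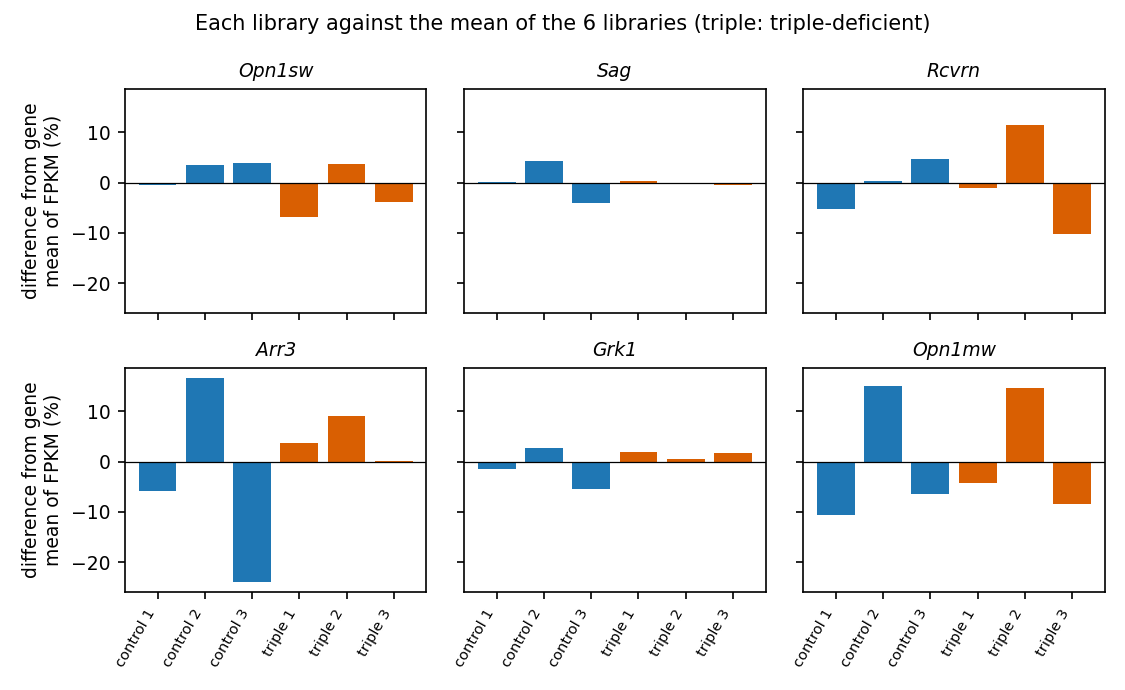
Difference of each library from the mean of the 6 libraries, in percent of FPKM, for each gene, with controls in blue and triple-deficient libraries in orange. Arr3 reaches from -23.9% in control 3 to 16.6% in control 2, Opn1mw is highest in library 2 of both groups, and Sag and Grk1 stay within 5.35% of their means.

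Likeness between genes was measured as the root mean square difference of log2(FPKM + 1) deviations from the gene mean over the 6 libraries, against 1656 other genes averaging 50 FPKM or more. Since all genes share the libraries and their depth, this is a description. Closest to Sag were Syt1 (0.0082) and Cds2 (0.0153), and closest to Grk1 were Cadps (0.0137) and Dkk3 (0.0213). Opn1sw lay nearest to BC005624 (0.0225) and to Rdh12 (0.0234), a retinol dehydrogenase of photoreceptors. Rcvrn lay nearest to Snx3 (0.0308) and Capns1 (0.034). Distances grow with a gene's own deviations, whose root mean square was 0.195 for Arr3 and 0.148 for Opn1mw but 0.0601 for Opn1sw and 0.0343 for Sag. Arr3 lay nearest to Dgkd (0.0855), a diacylglycerol kinase, and Fyco1 (0.109), and Opn1mw to Slirp (0.0881) and Mien1 (0.0884). Dgkd and Fyco1 were chosen for likeness to Arr3 over these same libraries, so a shared low value in control 3 follows from the choice. Dgkd was there at 101 FPKM against 119 to 132 FPKM in the other libraries, and Fyco1 at 60.3 against 73.8 to 79.1 FPKM.

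The rest of the light response showed no change past the threshold either. In the cone cascade 0 of 8 tested genes passed and 1 had an unadjusted p below 0.05, with a median log2 change of -0.02. That gene was Slc24a2, a sodium, calcium and potassium exchanger of the cone list. Its FPKM were 16.7, 19.0 and 15.7 in controls against 8.02, 8.42 and 18.1 in triple-deficient libraries (log2 change -0.62, SE 0.255, limma adjusted p = 0.940). Triple-deficient 3 lay among the controls, and without it Slc24a2 passed (log2 change -0.97, limma adjusted p = 0.0140). Pde6h, the inhibitory subunit of the cone phosphodiesterase, was at 906 ± 7.37 and 818 ± 67.9 FPKM, and Gngt2, the cone transducin gamma subunit, at 1651 ± 87.4 and 1557 ± 110 FPKM (SD, n = 3).

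Of 9 rod cascade genes 7 were tested, Gnat1 and Cnga1 being under the filter, and 0 passed, with 2 at an unadjusted p below 0.05 and a median of 0.11. Pde6a, which encodes a catalytic part of the phosphodiesterase of rods, was at 12.8 ± 1.22 and 19.5 ± 2.72 FPKM (SD, n = 3). Its groups do not overlap, as for 10.5% of all genes tested (log2 change 0.56, SE 0.103, limma adjusted p = 0.448). With library sex as a covariate Pde6a passed (adjusted p = 0.0463 in limma). Slc24a1, the rod exchanger, was at 4.63 ± 0.600 and 5.63 ± 0.228 FPKM, and Cngb1, a rod channel subunit, had a log2 change of 0.11. Among 9 genes of recovery used by both photoreceptor classes, 0 passed and 1 had an unadjusted p below 0.05 (median -0.0035). Gucy2f, a retinal guanylate cyclase, was at 2.63 ± 0.501 and 3.33 ± 0.175 FPKM, Unc119, a lipid-binding trafficking protein, at 566 ± 15.5 and 516 ± 38.0 FPKM, and Guca1a, a cyclase activator, had a log2 change of -0.08.

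The 18 listed opsins, arrestins, receptor kinases and neuronal calcium sensors that are related to the 6 genes summed to 325 to 336 FPKM per library. The highest of them, Hpca, a neuronal calcium sensor of the recoverin family, was at 60.8 to 68.1 FPKM, near the level of Opn1mw. Of the 17 tested, 0 passed and 0 had an unadjusted p below 0.05 (median -0.0025). The smallest p belonged to Rgr, a retinal G protein-coupled receptor at 2.14 ± 0.562 and 1.58 ± 0.254 FPKM (SD, n = 3), to Grk4 and to Opn4, the melanopsin of ganglion cells (log2 changes -0.27, -0.12 and 0.12).

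Regulators of opsin and photoreceptor genes had 0 of 14 past the threshold and 6 at an unadjusted p below 0.05 (median 0.03). Over all genes tested, 5.09% had such a p, and the groups did not overlap for 10.5%. Crx itself was at 425 ± 7.95 and 426 ± 20.9 FPKM (SD, n = 3). Sall3, a zinc finger factor of cones, was at 14.7 ± 0.362 and 11.7 ± 0.895 FPKM, with groups that do not overlap (log2 change -0.31, SE 0.063, limma adjusted p = 0.508). Samd11, a photoreceptor repressor protein, had 46.6 to 54.1 FPKM in controls, then 56.2 to 60.5 FPKM in triple-deficient libraries. Nr2e3, the rod nuclear receptor, had 3.69 ± 0.085 and 4.42 ± 0.179 FPKM. Nrl transcripts were at 44.2 ± 5.46 and 52.5 ± 1.16 FPKM (limma adjusted p = 0.836 for Samd11 and Nr2e3 and 0.861 for Nrl). Samd11, Nr2e3 and Nrl did not overlap between groups, and neither did Thrb and Nr2f1. Sall3, Samd11 and Nr2e3 were named for the smallest p in the list, so their lack of overlap follows in part from that choice. The Nrl value covers the whole gene and is no measure of its deleted part alone.

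Markers of other cells also had 0 genes past the threshold. Summed markers of the retinal pigment epithelium were at 43.4 to 55.4 FPKM in controls, against 32.1 to 45.3 FPKM in triple-deficient ones. An unadjusted p below 0.05, found for 5.09% of all genes tested, was seen for 3 of 6 tested markers. The log2 change was below 0 for 5 of them and above 0 for 1, with a median of -0.42. The 1 above 0 was Dct, the most abundant of the list (log2 change 0.24, group means of 21.3 and 25.4 FPKM). Tyrp1, Ttr and Pmel, named for the smallest p, had log2 changes of -0.60, -0.77 and -0.84. Their groups do not overlap, which follows in part from that choice. Tyr, not named for its p, did not overlap either, at 0.435 to 0.839 FPKM in controls and 0.376 to 0.424 FPKM in triple-deficient libraries. The groups of Dct and Rpe65 did overlap. Over all genes tested, 10.5% had groups that do not overlap. Müller glia markers (1 of 6 below 0.05) summed to 1624 to 1665 and 1445 to 1578 FPKM. These sums do not stand for every member. Of the 6 Müller markers, 4 had a log2 change above 0 and 2 below, with a median of 0.0060. The 2 below were Apoe (-0.27) and Rlbp1 (-0.12), and the largest above 0 was Slc1a3 (0.079). Bipolar markers (0 of 7) summed to 841 to 869 and 860 to 925 FPKM, and ganglion cell markers (0 of 5) to 468 to 516 and 464 to 486 FPKM. Lens markers (0 of 3) summed to 12.1 FPKM in control 1, with a lowest control sum of 2.27 FPKM, and to 1.55 to 2.72 FPKM in triple-deficient retinas. Their part in the values of the 6 genes was not tested.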

How the data were processed

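RNA was extracted with TRIzol and made into stranded mRNA libraries, per the labels' protocols. The authors deposited 1 table of FPKM per library. The submitters' processing notes name TopHat2 2.1.1, Bowtie2 2.3.5.1, Cufflinks 2.2.1, Cuffdiff and the build mm10, without roles; the annotation, the scaling between libraries and the handling of reads on overlapping genes are not stated in the sources used here.

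Deposited FPKM were used without rescaling. Genes averaging 0.5 FPKM or more entered limma 3.58.1 (R 4.3.3). The fit was on log2(FPKM + 1), with a mean-variance trend. That scale understates changes of low genes. Tests were two-sided, with Benjamini-Hochberg adjustment over all genes tested. The fit was tested on simulated data. Ratios were tested by exact permutation (SciPy 1.17.1). Read totals are not in the tables. Depth was estimated from values below 0.3 FPKM, where 61% to 64% of the quotients of a library over control 1 came out as quotients of small whole numbers within 0.005 on the log2 scale, and no count model was fitted. Coordinates and promoters are RefSeq's for GRCm38.p6, which is mm10. GC content came from GENCODE M21 and was known for 99.3% of tested genes.

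The members and lists were chosen with earlier results of these data known. Named beside the members were up to 3 genes per list with the smallest p, the genes most alike in pattern and the targeted genes. Gnat1, Gnat2, Gnb1, Gngt1, Pde6g, Cnga1, Hpca, Crx, Calu, Dct and Xist were added with their values in view. Alternatives were other pseudocounts, filters, scalings, variance models, library weights, a replicate block, a GC correction and leaving out each library.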

Additional observations from a re-analysis of the deposited data

How the results depend on the processing

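In all 19 alternatives 0 of the 6 genes passed the threshold in limma, the lowest adjusted p being 0.796, and Opn1sw (-0.11 to -0.03) and Grk1 (0.01 to 0.07) kept their direction. Arr3 ran from -0.0079 to 0.30 and Opn1mw from -0.075 to 0.13 when single libraries were left out, and both kept their sign otherwise. Sag and Rcvrn lay too close to 0 to have a stable direction. Sag turned to 0.0037 with quantile normalization and 0.012 with library sex, and Rcvrn to 0.055 with quantile normalization, 0.092 with array weights, 0.013 with the GC correction, 0.013 with the replicate block and the GC correction together, and 0.021 with library sex. Leaving out libraries gave -0.032 to 0.027 for Sag, -0.083 to 0.072 for Rcvrn and -0.13 to 0.035 for the ratio of Rcvrn to Grk1. The order of levels was the same in every library kept. Over all genes, 4 called became 2 with a pseudocount of 5, with no filter or with robust shrinkage, and 3 to 11 without single libraries (7 without control 3, 10 without triple-deficient 1, 11 without triple-deficient 3). Of the listed genes 0 to 1 passed without single libraries (Pmel without control 3, adjusted p = 0.0233 in limma, and Slc24a2 without triple-deficient 3) and 1, Pde6a, with library sex. The cause was not tested.

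The replicate number was no proven pairing: deviations of same-numbered libraries correlated at 0.0219, 0.114 and 0.0667 across genes, and not every library correlated best with its own number. The replicate block left 4 genes called and 0 of the 6. It kept the log2 changes, narrowed the SE of Opn1mw from 0.110 to 0.051 and of Arr3 from 0.133 to 0.094, and widened that of the other 4, for Sag from 0.058 to 0.068.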
